A study of Mus musculus with 2 samples.

Results

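The genes described here are those of the colony-stimulating factor (CSF) receptors and of 1 of their ligands: Csf1r, Csf1, Csf2ra, Csf2rb, Csf2rb2 and Csf3r, 6 of the 31053 genes in the deposited count matrix. They were chosen by name and followed in every cell barcode with at least 200 detected genes and at most 20% of its unique molecular identifiers (UMIs, each counting 1 captured transcript) from mitochondrial genes. That left 5328 of 6272 barcodes. The study sorted live single cells from the cribriform plate, the bone under the olfactory bulbs, taken with the bulbs and some nasal mucosa, with the aim of isolating lymphatic endothelium of the meninges, and compared mice that had EAE (experimental autoimmune encephalomyelitis, in which brain and spinal cord are inflamed by an induced immune attack) with healthy mice. Mice of both groups were wild-type C57BL/6J females of 10 weeks. Each group was a pool of cells from 5 mice, sorted as podoplanin-positive, CD31-positive and CD45-negative, so each is 1 sample and carries no replicate.

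The matrix marks its libraries by barcode suffix, 2 and 1, and no label or file used here says which suffix is EAE and which is healthy. They are called library 2 and library 1, and no disease state was inferred from their values. Library 2 gave 1922 kept cells and 20282053 UMIs, with a median of 9782.5 UMIs per cell. Library 1 gave 3406 kept cells and 25766058 UMIs, with a median of 7334 UMIs. With 1 library on each side no test was possible. Intervals are exact 95% intervals of counting error only, and a difference below is a difference between these libraries.

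CSF1R is the receptor tyrosine kinase for CSF1 and for interleukin 34, and microglia, the resident macrophages of the brain, depend on it for survival. The receptor for CSF2, also called GM-CSF, pairs an alpha chain that binds the ligand, encoded by Csf2ra, with the common beta chain that carries the signal, encoded by Csf2rb and shared with the receptors for interleukins 3 and 5. Mice have an additional beta chain, encoded by the neighbouring gene Csf2rb2, that serves the interleukin 3 receptor. GM-CSF made by T cells is needed for full EAE in mice, where it acts on myeloid cells. Csf3r encodes the receptor for CSF3, or G-CSF, best known for driving the production of neutrophils.

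Csf2rb and Csf2rb2 are near copies, and their sequences are shown because the counts of the pair rest on reads that tell them apart. In the GENCODE transcripts of GRCm38, the coding sequences, 2688 bases for Csf2rb and 2634 for Csf2rb2, were 95.2% identical over 2628 aligned bases, and both genes lie on chromosome 15. The most alike stretch of 120 bases, coding bases 2083 to 2202 in both genes, held no mismatch. The least alike stretch of that length held 22, given in capitals below, at coding bases 309 to 428 of Csf2rb and 312 to 431 of Csf2rb2.
Csf2rb and Csf2rb2, most alike: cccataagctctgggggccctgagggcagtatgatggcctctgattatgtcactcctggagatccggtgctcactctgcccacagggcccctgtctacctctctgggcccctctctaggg
Csf2rb, least alike: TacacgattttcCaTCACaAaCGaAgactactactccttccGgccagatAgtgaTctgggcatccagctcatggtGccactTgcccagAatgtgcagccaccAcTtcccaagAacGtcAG
Csf2rb2, least alike: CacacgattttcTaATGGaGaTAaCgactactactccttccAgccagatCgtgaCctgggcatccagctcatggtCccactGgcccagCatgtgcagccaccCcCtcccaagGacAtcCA

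Of the 50-base windows of the whole transcript, 18.9% of those of Csf2rb and 19.0% of those of Csf2rb2 also occurred in the other gene. In the last 500 bases of each transcript 0 of 451 windows did. Whether reads came from the end or the start of transcripts, and how shared reads were assigned, is not given in the sources used here. The division of UMIs between the pair is therefore uncertain, and their sum is given beside each.

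Csf2ra and Csf2rb2 were both higher in library 2, and the 250 bases before their annotated starts are printed for that reason. RefSeq promoter sequences of GRCm38.p6 were matched for 4 of the 6 genes. That of Csf2ra is chr19:61228419-61228668 on the minus strand, and that of Csf2rb2 is chr15:78305722-78305971 on the minus strand. Both are written toward the start of transcription, with motif matches in capitals.
Csf2ra: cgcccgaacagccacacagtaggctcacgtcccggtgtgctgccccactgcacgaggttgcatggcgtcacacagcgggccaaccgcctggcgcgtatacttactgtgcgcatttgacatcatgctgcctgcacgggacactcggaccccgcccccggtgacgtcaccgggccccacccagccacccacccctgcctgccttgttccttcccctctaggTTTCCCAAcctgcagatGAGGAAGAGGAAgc
Csf2rb2: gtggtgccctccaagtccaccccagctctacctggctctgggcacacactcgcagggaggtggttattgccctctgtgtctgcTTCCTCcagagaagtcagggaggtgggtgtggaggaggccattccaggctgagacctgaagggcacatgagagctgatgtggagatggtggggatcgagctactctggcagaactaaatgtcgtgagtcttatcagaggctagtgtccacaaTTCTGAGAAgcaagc

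The letters searched, on both strands, were GAGGAA and AGGAAGT (cores bound by PU.1, a macrophage transcription factor, which can overlap each other), TTNNGNAA (C/EBP), TTCNNNGAA (STAT proteins), TGANTCA (AP-1) and a paired interferon response element given by name alone. Csf2ra held GAGGAA from 14 and from 8 bases before the start and a C/EBP match on the opposite strand from 31 bases before it. Csf2rb2 held GAGGAA on the opposite strand, printed as its reverse complement, from 167 bases before the start and a STAT match from 15 bases before it. The Csf3r window held 1 GAGGAA, 86 bases before the start, and the Csf1 window held none of the 6 motifs. Of 27025 promoter windows of the same length, 23.1% held GAGGAA, 36.9% the C/EBP letters and 7.18% the STAT letters. A match describes letters and shows no binding.

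The sort label did not match the transcripts. Microglia-like cells, named from P2ry12, Tmem119 and 5 further markers, were 1809 of 1922 in library 2 (94.1%; interval 93.0% to 95.1%) and 2913 of 3406 in library 1 (85.5%; 84.3% to 86.7%). The summed level of 7 lymphatic endothelial markers was 6.90 CPM (UMIs of a gene per 1000000 UMIs of the cells) in library 2 and 28.3 CPM in library 1. Cells with at least 3 of 7 blood endothelial markers and at most 2 microglia markers numbered 3 in library 2 and 12 in library 1. The 3 cells of library 2 held no UMI of the CSF genes. The 12 of library 1 held 1 UMI of Csf1r, 1 of Csf1 and 2 of Csf2rb. Microglia-like cells held 2965 of the 3027 Csf2rb UMIs of library 2 and 868 of the 1055 of library 1, and 1059 of 1081 Csf2rb2 UMIs in library 2 and 361 of 423 in library 1. The values that follow are thus mainly those of microglia-like cells, less so in library 1 as the cells were named. The naming rule left 270 cells of library 1, cluster 3, without a name. Cluster 3 had all 7 microglia markers over 100 CPM, a marker sum of 16236 CPM and 73 of the Csf2rb UMIs of library 1. Part of the lower share in library 1 thus rests on that rule.

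Csf1r (ENSMUSG00000024621) stood at 1825 CPM in library 2 (37006 UMIs; interval 1806 to 1843 CPM) and 2206 CPM in library 1 (56847 UMIs; 2188 to 2224 CPM). The ratio of library 2 over library 1 was 0.827 (0.816 to 0.838), or -0.27 on the log2 scale. Csf1r was thus lower in library 2, and 29.9% of all genes had a lower ratio. Its ligand gene Csf1 (ENSMUSG00000014599) had 101 CPM in library 2 (2048 UMIs; 96.6 to 105 CPM) and 110 CPM in library 1 (2837 UMIs; 106 to 114 CPM), a ratio of 0.917 (0.866 to 0.971). That order depended on the share of UMIs that a cell had from 21 dissociation and heat shock genes, in ranges chosen after the data had been seen. In the 307 cells of library 2 and 415 of library 1 with 3% to 4% the log2 ratio of Csf1 was 0.53, against -0.12 over all kept cells. Among microglia-like cells with 2% to 3% Csf1 had 116 CPM in library 2 (107 to 125 CPM) and 148 CPM in library 1 (127 to 171 CPM), so there it was lower in library 2, as over all kept cells. With 4% to 6% it had 149 CPM in library 2 (130 to 171 CPM) and 127 CPM in library 1 (119 to 135 CPM), with overlapping intervals. Below 2% it had 82.2 CPM in library 2 (76.1 to 88.6 CPM) and 45.4 CPM in library 1 (29.9 to 66.0 CPM). The direction thus differed between these ranges.

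Of the 6 genes, those of the GM-CSF receptor and the neighbouring beta chain differed most between the libraries. Csf2ra (ENSMUSG00000059326) had 246 CPM in library 2 (4991 UMIs; 239 to 253 CPM) and 106 CPM in library 1 (2739 UMIs; 102 to 110 CPM), a ratio of 2.31 (2.21 to 2.43). Csf2rb (ENSMUSG00000071713) had 149 CPM in library 2 (3027 UMIs; 144 to 155 CPM) and 40.9 CPM in library 1 (1055 UMIs; 38.5 to 43.5 CPM), a ratio of 3.64 (3.40 to 3.91). Both chains that the receptor needs were thus more than 2-fold higher in library 2. Csf2rb2 (ENSMUSG00000071714), the interleukin 3 beta chain, had 53.3 CPM in library 2 (1081 UMIs; 50.2 to 56.6 CPM) and 16.4 CPM in library 1 (423 UMIs; 14.9 to 18.1 CPM), a ratio of 3.25 (2.90 to 3.64). Csf2rb2 took 26.3% of the summed UMIs of the pair in library 2 (25.0% to 27.7%) and 28.6% in library 1 (26.3% to 31.0%). Those intervals overlap. The pair together stood at 203 CPM in library 2 and 57.4 CPM in library 1, a ratio of 3.53 (3.33 to 3.75).

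Csf3r (ENSMUSG00000028859), the G-CSF receptor gene, had 197 CPM in library 2 (3997 UMIs; 191 to 203 CPM) and 166 CPM in library 1 (4274 UMIs; 161 to 171 CPM), a ratio of 1.19 (1.14 to 1.24). The 10 neutrophil markers had 14 UMIs in all in library 2 and 39 in library 1, and Ly6g, Retnlg and Mmp8 had none in either library. In the microglia-like cells alone Csf3r had 206 CPM in library 2 and 172 CPM in library 1.

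Against a 2-fold mark, 3 of the 6 genes were higher in library 2, where 14.2% of the 13891 genes with at least 20 UMIs were, and 0 of 6 were lower, where 8.37% of all genes were. Of all genes, 88.3% had a lower ratio than Csf2ra, 92.2% than Csf2rb2 and 93.3% than Csf2rb. For Csf3r that share was 62.3% and for Csf1 39.1%. The median log2 ratio of all genes was 0.04. In the microglia-like cells alone the log2 ratios were 1.26 for Csf2ra, 1.98 for Csf2rb, 1.76 for Csf2rb2, 0.26 for Csf3r, -0.11 for Csf1 and -0.26 for Csf1r. There 3 of the 6 were again at least 2-fold higher in library 2, where 10.4% of 12318 genes were, and 0 of 6 lower, where 8.62% were.

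**Figure D1:**
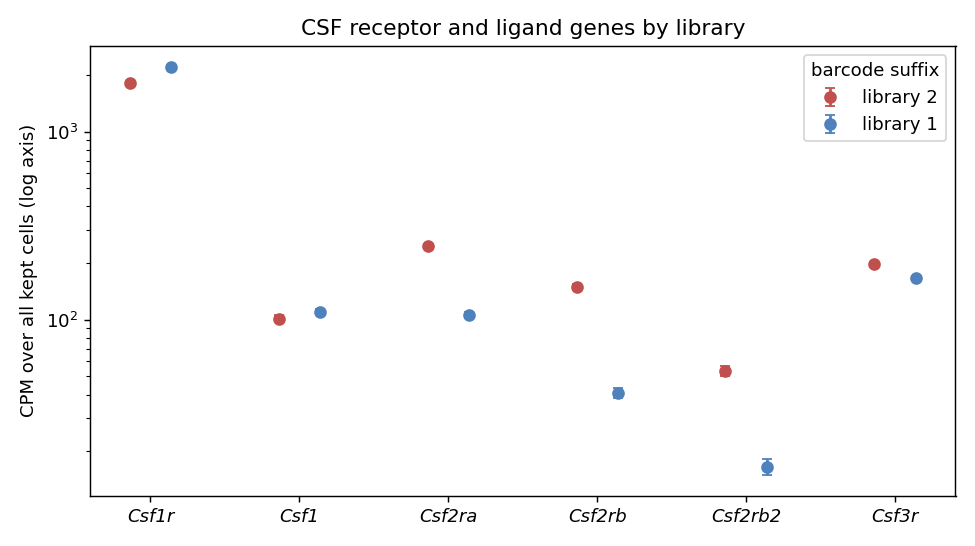
Level of each gene over all kept cells, in CPM on a log axis, for library 2 (red, left) and library 1 (blue, right); bars are exact 95% Poisson intervals and are mostly smaller than the points. Csf2ra, Csf2rb and Csf2rb2 lie apart, at 246, 149 and 53.3 CPM in library 2 and 106, 40.9 and 16.4 CPM in library 1, while the points of Csf1, Csf1r and Csf3r lie close together.

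Beside this gap, other measures also differed between the libraries. The 21 dissociation and heat shock genes took 2.24% of UMIs in library 2 and 5.91% in library 1, and median mitochondrial shares were 3.74% in library 2 and 1.54% in library 1. The sum over 7 microglia markers was 9230 CPM in library 2, against 15096 CPM in library 1. Of the markers of other cells that use the GM-CSF receptor, the 6 of monocytes had 75.3 CPM in all in library 2, against 11.8 CPM in library 1, and none of the 6 was at 0. The 7 dendritic cell markers went the other way, at 38.9 CPM in library 2 (Cd209a at 0) and 287 CPM in library 1 (Clec9a at 0). In library 1 they had 80.7 to 399 CPM in the microglia-like clusters described below. Of their 7391 UMIs there, Flt3 had 13 and Ccr7 25. The sum is therefore not read as a measure of dendritic cells. Among cells with at least 5 microglia markers and at most 1 monocyte marker, 1650 in library 2 and 3216 in library 1, the log2 ratios were 1.24 for Csf2ra, 1.96 for Csf2rb and 1.74 for Csf2rb2. Among the cells with 3% to 4% dissociation UMIs they were 1.18 for Csf2ra, 1.76 for Csf2rb and 1.54 for Csf2rb2. Both sets of cells were defined after the data had been seen. The gap was about as large in both. The part of the mitochondrial share in it was not tested.

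Nearly every cell held several UMIs of Csf1r, while the other genes had few UMIs per cell. The median cell held 18 UMIs of Csf1r in library 2 and 16 in library 1, and the highest held 93 in library 2 and 99 in library 1. Csf2ra had a median of 2 UMIs per cell in library 2 and 0 in library 1, and Csf2rb a median of 1 in library 2 and 0 in library 1. At least 4 UMIs of Csf2rb were held by 11.3% of cells in library 2 and 0.440% in library 1. The highest Csf2rb2 count in any cell was 10 in library 2 and 3 in library 1.

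**Figure D2:**
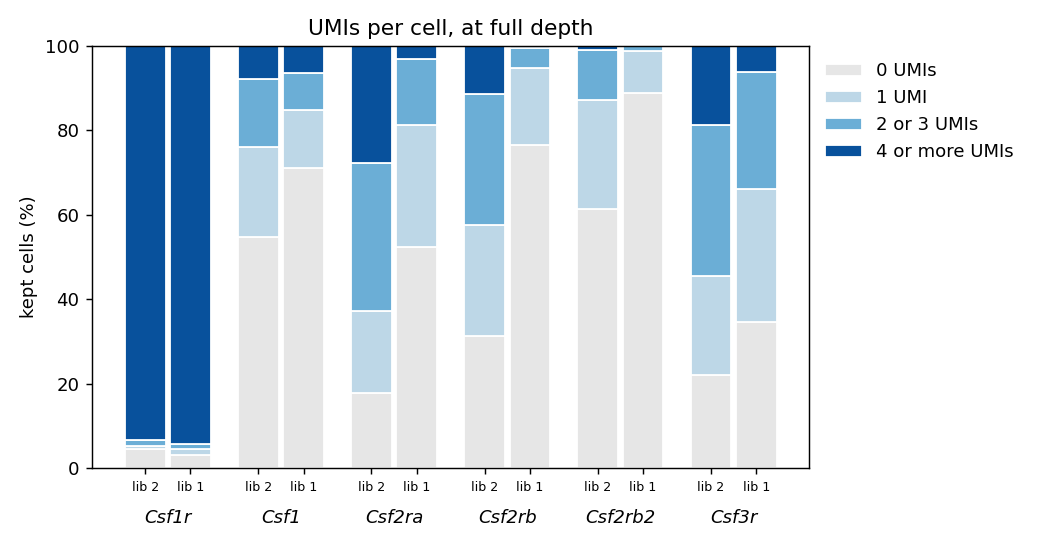
Percentage of kept cells holding 0, 1, 2 or 3, and 4 or more UMIs of each gene at full depth, library 2 left of library 1. Cells with 0 UMIs of Csf2rb made up 31.2% of library 2 and 76.5% of library 1, while cells with 4 or more UMIs of Csf1r made up 93.4% of library 2 and 94.4% of library 1.

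Since cells of library 2 were deeper, shares of cells with at least 1 UMI were compared after thinning each cell to 1000 UMIs, which left out 15 shallower cells of library 2 and 87 of library 1. Csf2ra was then found in 20.6% of 1907 cells of library 2 (18.8% to 22.4%) and 9.52% of 3319 cells of library 1 (8.54% to 10.6%). At full depth these shares were 82.2% in library 2 and 47.6% in library 1. Csf2rb was found in 13.1% of thinned cells in library 2 (11.6% to 14.7%), against 3.50% in library 1 (2.90% to 4.18%), and at full depth in 68.8% of library 2 and 23.5% of library 1. The intervals of both genes are apart at equal depth. Csf2rb2 was found in 5.66% of thinned cells in library 2 (4.67% to 6.80%), against 1.96% in library 1 (1.51% to 2.49%), and at full depth in 38.6% of library 2 and 11.2% of library 1. Csf3r was found in 17.1% of thinned cells in library 2 (15.5% to 18.9%), against 15.5% in library 1 (14.3% to 16.8%), with overlapping intervals, and at full depth in 77.9% of library 2 and 65.5% of library 1. Csf1r was found in 81.1% of thinned cells in library 2 (79.3% to 82.9%), against 87.0% in library 1 (85.9% to 88.2%), and at full depth in 95.5% of library 2 and 97.0% of library 1.

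Csf1 was unevenly spread over cells. At 1000 UMIs it was found in 8.08% of cells in library 2 (6.89% to 9.39%), against 8.47% in library 1 (7.54% to 9.47%). At full depth the shares were 45.3% in library 2 and 28.9% in library 1, against the order of the CPM, and no order is read from them. The 1% of cells with the most Csf1 held 11.6% of its UMIs in library 2 and 21.3% in library 1, with up to 19 UMIs in a cell of library 2 and 35 in a cell of library 1. In library 1 Csf2ra, at a similar CPM, had 9.09% of its UMIs in the top 1% of cells.

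Free RNA in the droplets can give a UMI to a cell that does not express the gene. Olfactory sensory neuron-like cells, 44 over both libraries with a median depth of 11409 UMIs, deeper than the median cell of either library, were used as a gauge. At full depth 2 of the 44 held Csf1r (4.55%), and 1 each (2.27%) held Csf1, Csf2ra and Csf3r. None held Csf2rb or Csf2rb2, which by an exact binomial interval allows a share of up to 8.04%. Of the 44 cells, 37 were of library 2 and 7 of library 1. In library 2 the shares of each gene over kept cells at full depth lay above these values. The 7 cells of library 1 held none of the 6 genes, which by an exact binomial interval allows a share of up to 41.0%. That is above the full-depth shares of Csf1 (28.9%), Csf2rb (23.5%) and Csf2rb2 (11.2%) in library 1, so these cells give no background for those genes there.

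The alpha and beta chains of the GM-CSF receptor were seen in 1 cell together more often in library 2. At full depth 61.3% of cells of library 2 (1179 cells; 59.1% to 63.5%) and 12.9% of library 1 (440 cells; 11.8% to 14.1%) held both Csf2ra and Csf2rb. With either beta chain these shares were 68.5% in library 2 and 17.2% in library 1. At 1000 UMIs the pair fell together in 2.52% of cells of library 2 and 0.301% in library 1. Among thinned cells of library 2, Csf2rb was found in 12.2% of those with Csf2ra (9.17% to 15.9%) and 13.3% of those without (11.6% to 15.1%). In library 1 it was found in 3.16% of those with Csf2ra (1.53% to 5.74%) and 3.53% of those without (2.90% to 4.25%). At that depth no association of the 2 chains within cells of a library was detectable.

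Clusters built without the CSF genes, the pathway lists and the dissociation genes split the microglia-like cells by library almost completely. The cells of library 2 lay in cluster 12 (917 cells, led by C4b, Apoc1 and the antigen presentation gene H2-Aa), cluster 11 (437 cells, C4b and Apoc1), cluster 14 (201 cells, the chemokine gene Cxcl9 and Acod1), cluster 6 (164 cells, the interferon response genes Rsad2 and Ifit3) and cluster 15 (85 cells, the cell division genes Mki67 and Top2a). H2-Aa was among the leading genes of cluster 11 as well. Those of library 1 lay in clusters 5 (820 cells, Gadd45b and Il1a), 2 (595 cells) and 1 (562 cells), both led by the heat shock gene Hspa1b, 7 (516 cells, the stress gene Gdf15 and the chemokine gene Ccl4), 0 (369 cells, Hspa1b and Fcrls) and 15 (24 cells). Of the microglia-like clusters, cluster 15 alone held at least 20 cells of each library. Cluster sizes are therefore not compared, and which clusters a value comes from is named with it.

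Csf2rb ran from 135 CPM in cluster 11 (123 to 148 CPM) to 206 CPM in cluster 14 (190 to 224 CPM) among the microglia-like clusters of library 2, counting groups of at least 20 cells here and below. Among those of library 1 it ran from 34.1 CPM in cluster 7 to 44.3 CPM in cluster 0, a 1.30-fold range whose interval (0.990 to 1.70) includes 1. The clusters of the libraries did not overlap. Csf2rb2 had its lowest level of library 2, 38.2 CPM, in cluster 11 and its highest, 85.3 CPM, in cluster 14, a 2.23-fold range (1.79 to 2.79), and in library 1 it lay between 13.5 CPM in cluster 1 and 19.5 CPM in cluster 2. Csf2ra lay between 231 CPM in cluster 11 and 297 CPM in cluster 14 in library 2, and between 93.6 CPM in cluster 2 and 224 CPM in the dividing cells of cluster 15 in library 1. Without cluster 15, the highest Csf2ra level of a microglia-like cluster of library 1 was 114 CPM, in cluster 7. In library 2 all 3 genes thus had their highest level in cluster 14, the one led by Cxcl9, and their lowest in cluster 11. For all 3 the interval of cluster 11 overlapped that of cluster 15 (Csf2ra 209 to 265 CPM, Csf2rb 117 to 160 CPM, Csf2rb2 41.1 to 68.1 CPM). The lowest cluster is therefore not settled. For Csf2rb2 the intervals of cluster 14 (74.6 to 97.1 CPM) and cluster 6 (52.0 to 76.0 CPM) also overlapped. The sum of the monocyte markers in library 2 was 182 CPM in cluster 15, 149 CPM in cluster 6, 73.3 CPM in cluster 14, 61.2 CPM in cluster 11 and 57.1 CPM in cluster 12. Csf2rb had 138 CPM in cluster 15, 160 CPM in cluster 6 and 150 CPM in cluster 12, and Csf2rb2 had 53.4 CPM, 63.1 CPM and 52.4 CPM there. Cluster 6 was thus next to the highest both in the monocyte markers and in the beta chains, while cluster 14, highest in the beta chains, was below clusters 15 and 6 in the markers. The part of the monocyte markers in these levels was not tested.

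The dividing cells of cluster 15 allow the libraries to be set side by side within 1 cluster, though they differed there in other measures too. The border macrophage markers had 9.17 CPM in library 2 and 102 CPM in library 1, the monocyte markers 182 CPM in library 2 and 12.4 CPM in library 1, and the dissociation genes 1.62% of UMIs in library 2 and 3.34% in library 1. Their part in the values was not tested. Csf2rb had 138 CPM in the 85 cells of library 2 (117 to 160 CPM) and 40.4 CPM in the 24 cells of library 1 (21.5 to 69.0 CPM). Csf2rb2 had 53.4 CPM in library 2 (41.1 to 68.1 CPM) and 18.6 CPM in library 1 (6.84 to 40.6 CPM). For both beta chains the intervals were apart. Csf2ra had 236 CPM in library 2 (209 to 265 CPM) and 224 CPM in library 1 (175 to 282 CPM), with overlapping intervals. Within library 2 the dividing cells had 0.916 times the Csf2ra of the other microglia-like cells (0.810 to 1.03), and within library 1 they had 2.13 times (1.66 to 2.69). Csf3r was lower in dividing cells in both libraries, at 0.648 times the other microglia-like cells in library 2 (0.551 to 0.758) and 0.575 times in library 1 (0.392 to 0.813).

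Csf1r moved little between microglia-like clusters, from 1546 CPM in cluster 14 to 2169 CPM in cluster 11 in library 2, a 1.40-fold range (1.35 to 1.46), and from 2050 CPM in cluster 15 to 2767 CPM in cluster 0 in library 1, a 1.35-fold range (1.25 to 1.47). In library 2 the order ran opposite to that of Csf2rb at both ends, with cluster 14 lowest and cluster 11 highest for Csf1r. The Csf1r intervals of cluster 14 (1499 to 1594 CPM) and cluster 15 (1525 to 1669 CPM) overlapped. The summed microglia markers also were lowest in cluster 14, at 7245 CPM, and highest in cluster 11, at 11267 CPM. Csf3r lay between 137 CPM in cluster 15 and 224 CPM in cluster 12 in library 2, and between 99.4 CPM in cluster 15 and 190 CPM in cluster 2 in library 1.

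Csf1 had the widest range of the 6 genes among the clusters of library 1. There it stood at 23.6 CPM in cluster 0 (17.4 to 31.3 CPM), 65.0 CPM in cluster 2, 86.3 CPM in cluster 1, 141 CPM in cluster 5 (132 to 150 CPM) and 174 CPM in cluster 7 (162 to 187 CPM). Cluster 7 was thus 7.37-fold over cluster 0 (5.50 to 10.1). In library 2 it ran from 67.5 CPM in cluster 11 to 132 CPM in cluster 6, a 1.95-fold range (1.62 to 2.35). Of the 35 cells of library 1 with the most Csf1, 16 were in cluster 5, 9 in cluster 7 and 3 in cluster 4. Of the 20 such cells of library 2, 11 were in cluster 12 and 6 in cluster 14. The dissociation genes took 4.28% of UMIs in cluster 0 of library 1, 5.95% in cluster 5 and 6.81% in cluster 7, and 6.49% in cluster 2, where Csf1 was low.

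Split by that share within the microglia-like cells, Csf1 in library 2 had 82.2 CPM in cells under 2%, 116 CPM from 2% to 3%, 129 CPM from 3% to 4% and 149 CPM from 4% to 6%. In library 1 the same bins gave 45.4, 148, 88.4 and 127 CPM, in no order. Csf2rb stayed between 150 and 159 CPM over those 4 bins of library 2 and was 68.9, 38.1, 43.2 and 40.8 CPM in those of library 1, the first resting on 105 cells. In each of the 4 bins library 2 was above library 1 for Csf2rb.

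**Figure D3:**
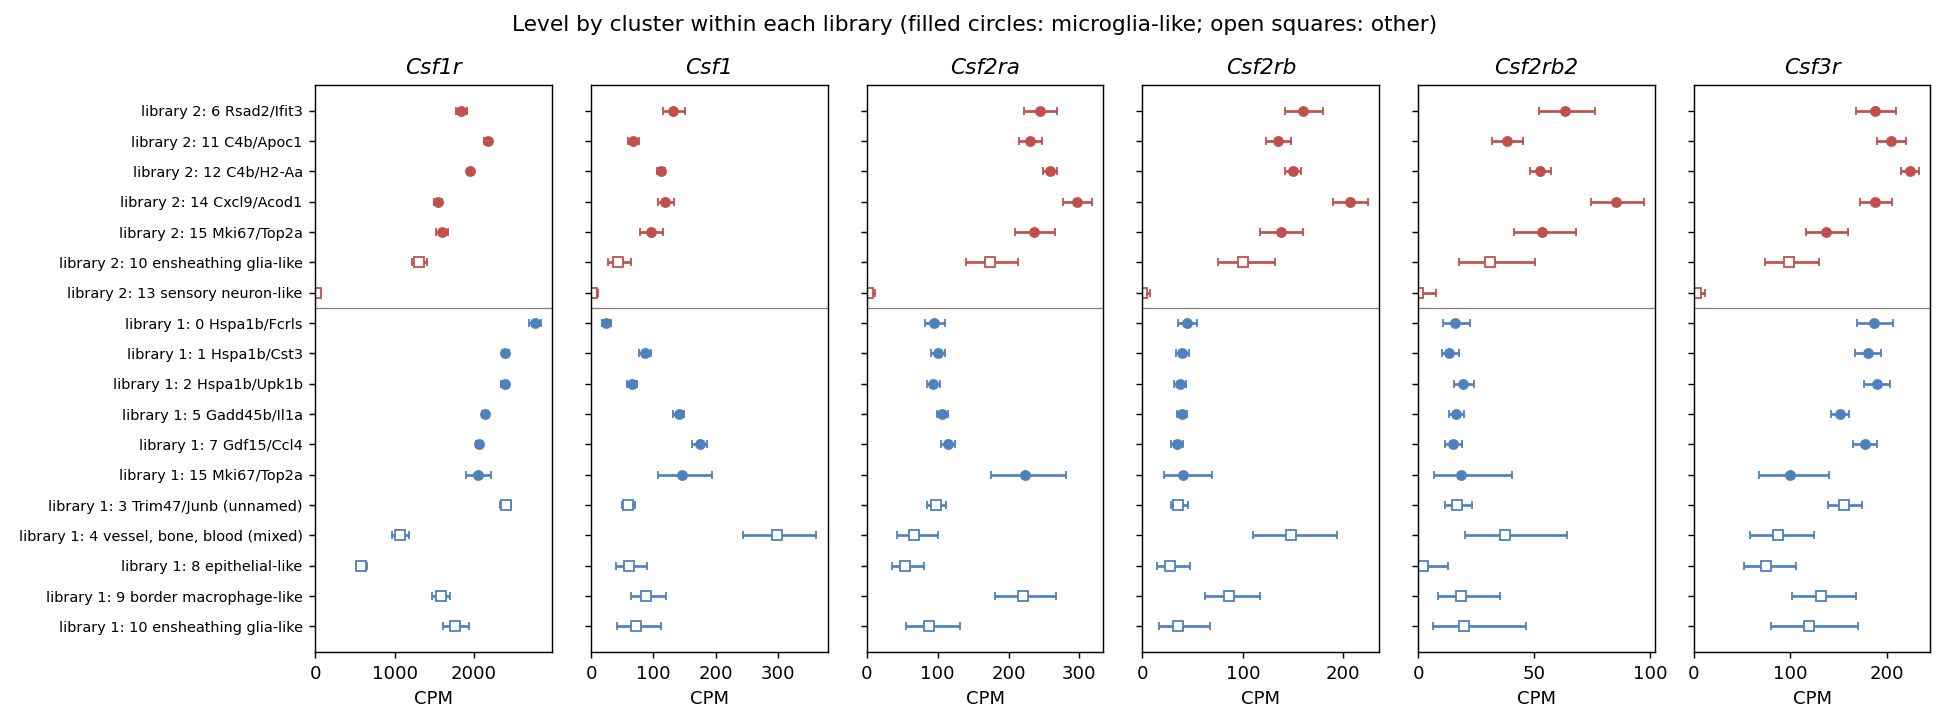
CPM of each gene by cluster within each library (library 2 above in red, library 1 below in blue), for groups of at least 20 cells, with exact 95% Poisson intervals; filled circles are microglia-like clusters and open squares the others. Csf2rb runs from 135 to 206 CPM in the microglia-like clusters of library 2 and from 34.1 to 44.3 CPM in those of library 1, while Csf1 spreads most within library 1.

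Of the other cells of library 1, the 51 border macrophage-like cells of cluster 9, led by Pf4 and Ms4a7, had more GM-CSF receptor transcript than the microglia-like cells of that library. Csf2ra had 221 CPM in the border macrophage-like cells and 107 CPM in the microglia-like cells, 2.06 times (1.68 to 2.50). Csf2rb had 86.6 CPM in the border macrophage-like cells and 39.3 CPM in the microglia-like cells, 2.20 times (1.58 to 3.01). Csf1r was lower in them, at 1585 CPM in the border macrophage-like cells and 2267 CPM in the microglia-like cells, 0.699 times (0.650 to 0.751). Library 2 had no cell in that cluster. Cluster 3, the unnamed 7.93% of library 1 led by Trim47 and Junb, had 97.7 CPM of Csf2ra, 35.8 CPM of Csf2rb and 2399 CPM of Csf1r, each inside the range of the microglia-like clusters of that library. The olfactory ensheathing glia-like cells of cluster 10 held Csf1r at 1309 CPM in library 2 and 1764 CPM in library 1, beside 6596 CPM of microglia markers in library 2 and 10697 CPM in library 1, so their CSF gene levels are not read as those of glia.

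Cluster 4, a mixed group of vessel, bone and blood cells, had the highest Csf1 of library 1 among groups of at least 20 cells, at 298 CPM (243 to 362 CPM), and Csf2rb at 148 CPM (110 to 194 CPM). It also had 7237 CPM of microglia markers in library 1, where 19 of its 56 cells held Csf1r. Its levels are therefore not read as those of vessel, bone and blood cells alone. The 10 cells of library 1 in cluster 6 had 390 CPM of Csf1 (58 UMIs). Cluster 4 held 10 cells of library 1 with at least 2 of 6 mast cell and basophil markers, singled out after the data had been seen. These cells of cluster 4 held 57 UMIs of Fcer1a, 41 of Cpa3, 34 of Mcpt8 and 33 of Ms4a2, and none of Mcpt4 or Tpsb2. All 10 had Csf1 (47 UMIs, 793 CPM, 582 to 1054 CPM) and all 10 had Csf2rb (42 UMIs, 708 CPM, 510 to 957 CPM), while 7 had Csf2rb2. Csf2ra and Csf3r had 1 UMI each. Of their 20 Csf1r UMIs, 19 were in 1 cell that also held all 7 microglia markers. No cell of library 2 carried 2 of these markers.

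Among the other ligands and partner receptors, 2 of 9 reached 20 UMIs. Il3ra, the alpha chain that joins a beta chain in the interleukin 3 receptor, had 24.4 CPM in library 2 and 6.91 CPM in library 1, a ratio of 3.53 (2.96 to 4.21), close to those of the beta chains. Flt3, a receptor kinase related to CSF1R, had 0.493 CPM in library 2 and 0.505 CPM in library 1. Kit, another receptor kinase of that family, had 2 UMIs in library 2 and 8 in library 1. Csf2, the GM-CSF gene, had 1 UMI in library 2 and 3 in library 1. Csf3 had 0 UMIs in library 2 and 2 in library 1, Il34 had 0 in library 2 and 1 in library 1, and Il3, Il5 and Il5ra had 0 in both. A count of 0 allows 0.148 CPM in library 2 and 0.116 CPM in library 1.

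Of the 24 genes of CSF1R signalling, 0 were at least 2-fold higher in library 2 (14.2% of all genes) and 1 was lower (8.37% of all genes). Their median log2 ratio was -0.06. Tyrobp, the adaptor that CSF1R signals through in macrophages, had 2116 CPM in library 2 and 2418 CPM in library 1. Of the Src family kinase genes, Lyn had 384 CPM in library 2 and 495 CPM in library 1, a ratio of 0.775 (0.754 to 0.798), and Fyn had 5.32 CPM in library 2 and 10.9 CPM in library 1, a ratio of 0.488 (0.387 to 0.612). The adaptor gene Lcp2 was 1.43 times as high in library 2.

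Of the 17 genes of JAK-STAT5 signalling below the beta chain and the G-CSF receptor, 2 were at least 2-fold higher in library 2 (11.8%, against 14.2% of all genes) and 1 lower (5.88%, against 8.37%). Their median log2 ratio was -0.21. The higher ones were both feedback inhibitors that cytokine signals induce. Socs2 had 24.7 CPM in library 2 and 7.30 CPM in library 1, a ratio of 3.38 (2.85 to 4.02), and Socs1 66.0 CPM in library 2 and 24.0 CPM in library 1, a ratio of 2.75 (2.50 to 3.03). Socs3 went the other way, at 800 CPM in library 2 and 1185 CPM in library 1. The survival gene Mcl1 was the lower one, at 791 CPM in library 2 and 1622 CPM in library 1. Named after their values were seen, Cish, a known STAT5 target, had 8.83 CPM in library 2 and 7.34 CPM in library 1, the interval of the ratio being 0.975 to 1.48, and the kinase gene Jak2 had 18.1 CPM in library 2 and 22.1 CPM in library 1.

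Of 14 measured GM-CSF induced genes, out of 17 listed, 4 were at least 2-fold higher in library 2 (28.6%, against 14.2% of all genes) and 5 lower (35.7%, against 8.37%). Their median log2 ratio was -0.39. Itgax, which encodes the integrin CD11c, had 61.8 CPM in library 2 and 8.42 CPM in library 1, a ratio of 7.34 (6.35 to 8.52). Il1rn, the interleukin 1 receptor antagonist gene, had 7.15 CPM in library 2 and 0.505 CPM in library 1, a ratio of 14.2 (8.03 to 27.3). Il1b had 99.4 CPM in library 2 and 63.4 CPM in library 1. The chemokine receptor gene Ccr7 was lower, with 3 UMIs in library 2 and 25 in library 1, and so was the abundant Cd9, at 1254 CPM in library 2 and 1657 CPM in library 1. The list as a whole had no common direction.

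Of 12 genes that depend on CSF1 in macrophages, 1 was at least 2-fold higher in library 2 (8.33%, against 14.2% of all genes) and 3 lower (25%, against 8.37%). Their median log2 ratio was -0.57. The chemokine gene Ccl2 had 2625 CPM in library 2 and 611 CPM in library 1, a ratio of 4.30 (4.22 to 4.38). Cd14 had 295 CPM in library 2 and 832 CPM in library 1, and Mrc1 3.35 CPM in library 2 and 11.9 CPM in library 1. Mrc1 is also a border macrophage marker, and the border macrophage-like cluster 9 held 51 cells of library 1 and none of library 2. The part of those cells in its ratio was not tested. The fractalkine receptor gene Cx3cr1 had 1308 CPM in library 2 and 2135 CPM in library 1.

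Of 11 genes for factors that bind the Csf1r locus, 0 were higher past 2-fold in library 2 (14.2% of all genes) and 2 lower (18.2%, against 8.37% of all genes). Those were Klf4, with 213 CPM in library 2 and 832 CPM in library 1, and Egr1, with 1808 CPM in library 2 and 4293 CPM in library 1, which is also on the dissociation list. Cebpb had 689 CPM in library 2 and 676 CPM in library 1. Outside the naming rule, Spi1, which encodes PU.1, had 377 CPM in library 2 and 527 CPM in library 1, a ratio of 0.716 (0.696 to 0.736).

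Of 7 genes of receptor cleavage and turnover, 1 was higher and 1 lower past 2-fold. Rhbdf2, a partner of the protease ADAM17 that sheds CSF1R from the surface, had 31.5 CPM in library 2 and 11.1 CPM in library 1, a ratio of 2.82 (2.45 to 3.26). Adam17 itself had 91.1 CPM in library 2 and 75.3 CPM in library 1. Over all 7 lists 9 of 87 measured genes were at least 2-fold higher in library 2 (10.3%) and 13 lower (14.9%), where 14.2% of all genes were higher and 8.37% lower. The libraries also differed in their dissociation share, and its part in these ratios was not tested for single genes.

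**Figure D4:**
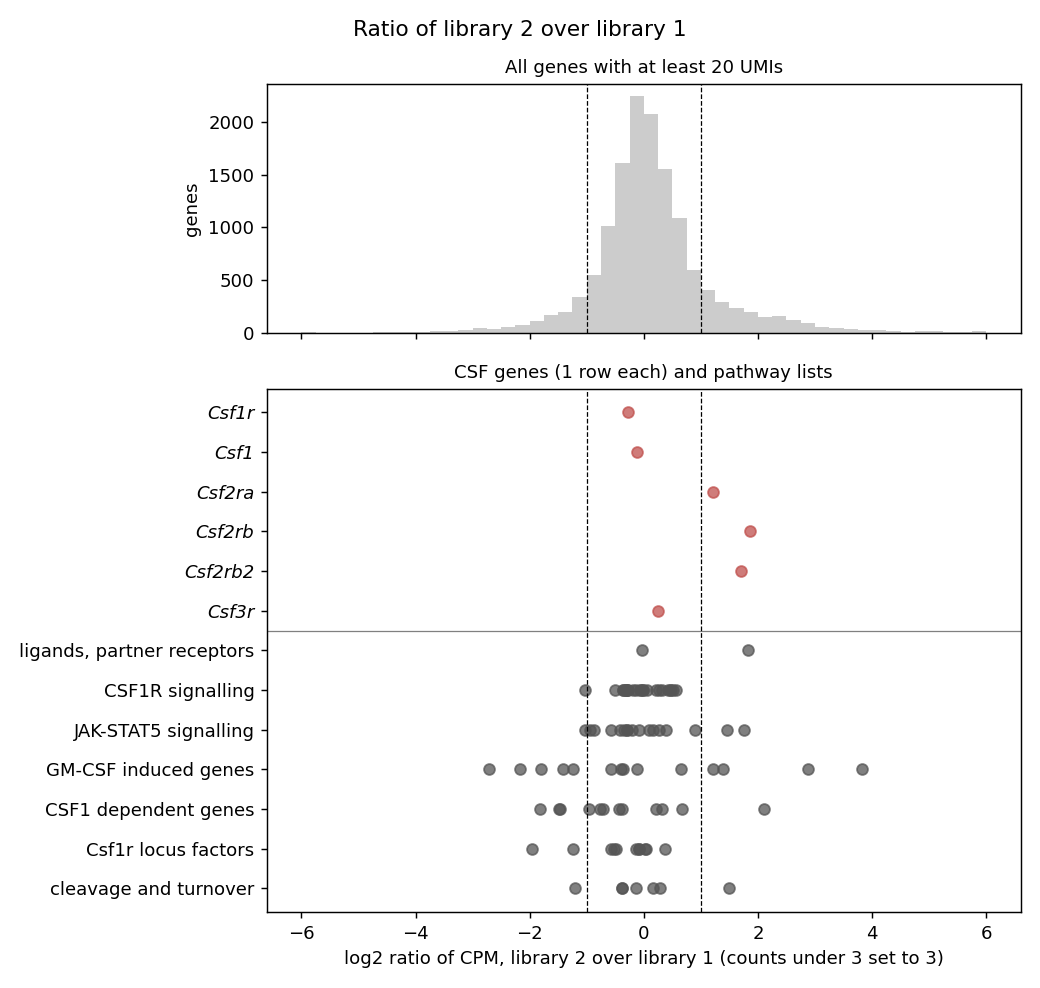
Log2 ratio of CPM, library 2 over library 1, for all 13891 genes with at least 20 UMIs (top, number of genes per bin), and for each CSF gene and the members of each pathway list (below, 1 point a gene); dashed lines mark 2-fold. Csf2ra, Csf2rb and Csf2rb2 lie right of the upper line, at 1.21, 1.87 and 1.70, and the points of the GM-CSF induced list spread to both sides.

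To see which genes followed each CSF gene, levels were correlated over the 15 cluster-by-library groups of at least 50 cells, among 9778 genes, as Pearson's r of log2(CPM + 10). The groups share library, depth and stress, so the values are descriptions. Csf1r ran closest to Entpd1 (r = 0.99), an enzyme that breaks down ATP. Csf2rb ran closest to AB124611 (r = 0.98), and to Pstpip1, Hpcal1, Cyp4f18 and Ly6a, which were higher in library 2, Ly6a at 603 CPM in library 2 and 19.8 CPM in library 1. Csf2ra ran closest to Ctsc (r = 0.97), the gene of a lysosomal protease, at 1155 CPM in library 2 and 340 CPM in library 1. Csf2rb2 had Csf2rb among its 5 closest (r = 0.92). Csf3r ran closest to Dock4 (r = 0.92), and Csf1 to Tmem189 (r = 0.84), with Edn1, Spp1 and Ccl3 also among its 5 closest. Between the CSF genes, r was 0.84 for Csf1r with Csf3r, 0.76 for Csf2ra with Csf2rb and -0.19 for Csf1r with Csf1.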

How the data were processed

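The authors deposited 1 matrix of whole-number UMI counts per gene and barcode, written by Cell Ranger 3.1.0 in matrix format 2, per the file headers. Bcl2fastq and UMI-tools appear, with no version, in the submitters' processing notes. Not given in the sources used here are the genome build, the annotation, the chemistry and any equalisation of depth between libraries. From the counts, CPM were made from the UMIs summed per gene and library, with exact Poisson intervals and exact conditional binomial intervals of ratios. PCR and sampling beyond counting are not covered by the intervals. The counting of genes past 2-fold was checked on simulated data. Shares have exact binomial intervals. Genes counted against 2-fold had at least 20 UMIs over both libraries, with counts under 3 set to 3. No doublet caller was run, so doublets may remain, and an alternative left out the 5% of cells with the most UMIs. In all, 8 barcodes occurred under both suffixes, 7 of them kept in both.

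Cells were clustered with Scanpy 1.11.5 (2000 variable genes, 30 components, 15 neighbours, Leiden resolution 1 through igraph 0.11.9) after the CSF, pathway and dissociation genes had been set aside. A cluster was named by a marker list that had 3 or more genes in its top 50 by fold, was left mixed if different lists had, and was otherwise microglia-like with at least 5 of 7 microglia markers at 100 CPM. Cluster 3 (270 cells of library 1) stayed unnamed because Fscn1, a marker of dendritic cells, was among its 10 highest folds and no microglia marker was. Python 3.11.15, NumPy 2.4.6, SciPy 1.17.1, pandas 2.3.3, Biopython 1.88 and matplotlib 3.10.9 were used. Genes, lists and markers were chosen with earlier results of these data known. Of each pathway list the 3 genes highest in CPM and the 3 with the largest ratios were eligible to be named. Some eligible genes are not reported here. EAE was not set against healthy mice, since the suffixes could not be mapped.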

Additional observations from a re-analysis of the deposited data

Results flagged for a closer look

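Barcodes that failed the cell filter, 512 in library 2 and 432 in library 1, enter no comparison above, and they held CSF gene transcripts above the level that a count of 0 allows, 3.03 CPM in library 2 and 5.96 CPM in library 1. In library 2 the left-out barcodes had 92.9 CPM of Csf1r, 20.2 CPM of Csf2ra, 10.1 CPM of Csf3r, 8.08 CPM of Csf2rb and 4.04 CPM of Csf1. In library 1 they had 73.5 CPM of Csf1r, 11.9 CPM of Csf3r and 7.95 CPM of Csf1. Against the kept cells, with 1825 CPM of Csf1r in library 2 and 2206 CPM in library 1, these levels were low, and they rest on 4 to 92 UMIs a gene.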

How the results depend on the processing

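Of the values recomputed under the alternatives, 96 moved by less than counting error or 1.5 times and 29 moved by more, and 1 that lay outside counting error turned round. In all 4 values changed sign, each of Csf1: the log2 ratio under 1 alternative and the difference in share under 3. The log2 ratio of Csf1 was 0.53 among cells with 3% to 4% dissociation UMIs, against -0.12, and -0.0013 with totals that leave out mitochondrial, ribosomal protein and haemoglobin genes. With those totals the log2 ratios were -0.15 for Csf1r, 1.33 for Csf2ra, 1.99 for Csf2rb and 0.37 for Csf3r. Csf1r gave -0.31 without a cell filter, -0.31 when divided by the median ratio, -0.33 with totals without dissociation genes, -0.25 among the cells matched on dissociation and -0.23 among cells with at most 1 monocyte marker. Csf2rb gave 1.98 in microglia-like cells, 1.76 in the matched cells and 1.76 as a mean over cells, and Csf3r 0.46 in the matched cells. Over 11 alternatives the log2 ratios lay between 1.16 and 1.33 for Csf2ra, 1.76 and 1.99 for Csf2rb, 1.54 and 1.82 for Csf2rb2, and 0.19 and 0.46 for Csf3r.

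For the 5 genes other than Csf1r, differences in share grew with depth. In percentage points, library 2 minus library 1, they were 2.97 at 2000 UMIs and 16.4 at full depth for Csf1 (-0.39 at 1000 UMIs and 0.45 there under the stricter cell filter), 15.8 and 34.6 for Csf2ra (13.2 under the stricter cell filter), 16.5 and 45.3 for Csf2rb (9.56 at 1000), 6.93 and 27.4 for Csf2rb2 (3.70 at 1000), and 4.41 and 12.4 for Csf3r (1.63 at 1000). For Csf1r the difference was -1.45 at full depth and -5.92 at 1000 UMIs. Of the pathway genes, 8 of 79 measured in the matched cells were at least 2-fold lower, in place of 13 of 87. There 6 were higher, in place of 9. With 10 CPM added 5 were higher and 5 lower. The shares of all genes past 2-fold are not given for these settings, so these counts are not read as a result about the lists. Without cells of barcodes found under both suffixes all 8 recomputed values stayed within these limits, as did all 6 without the 5% of cells with the most UMIs. The cause of the shifts was not tested. No paired analysis was possible because each group is 1 pooled library. One library on each side gives no spread between samples, so depth limits only the counting error, and Csf2 and Csf3 lay near the level of a count of 0.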
